A study of Mus musculus with 4 samples.

Results

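The genes of the activator protein 1 (AP-1) family were followed in mouse cochlear hair cells and non-hair cells within hours of exposure to the aminoglycoside gentamicin. The members were taken by name as the Jun genes Jun, Junb and Jund, the Fos genes Fos, Fosb, Fosl1 and Fosl2, and the related genes Atf3 and Maff. They are 9 of the 23420 genes in the files. All 9 had at least 100 reads over the 12 replicates and were tested, among 16081 genes tested in all.

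The 4 groups were control and gentamicin-treated hair cells (HCs) and control and gentamicin-treated non-hair cells (NHCs), with 3 replicates each. All came from cochleae of postnatal day 1 CD1 mice that carry the Atoh1-GFP transgene, in which an Atoh1 enhancer drives green fluorescent protein mainly in HCs. The organs were kept overnight in DMEM F12 with N2 supplement and penicillin, and treated cultures then received 0.5 mM gentamicin for 3 h. Controls had the same culture without the drug, and both were broken up into single cells and sorted by flow cytometry directly afterwards. The HC gate left out cells with weak GFP, and the NHC fraction is a mixture of the GFP negative cell types of the organ, without the inner phalangeal cells, which express GFP weakly. The study describes the replicates as biological, without saying which organs or litters went into each.

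AP-1 is a dimer of basic leucine zipper (bZIP) proteins. Jun proteins pair with each other, with Fos proteins or with ATF proteins, whereas Fos proteins do not bind DNA as pairs of their own kind and need a Jun partner. Small Maf proteins such as MAFF lack a transactivation domain and pair with many bZIP proteins. Most of these genes are immediate early genes, which are transcribed within minutes of growth factor, depolarization or stress signals, and their messages are short-lived. JNK, the Jun N-terminal kinase, phosphorylates c-Jun, and Jun-containing dimers bind the promoter of Jun itself. In the inner ear this pathway is known from aminoglycoside and noise injury of HCs.

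The regulatory sequence just upstream of the transcription start differs among the members. The 250 bases before the start are shown for the 4 genes on which the Jun and Fos comparisons turn, as RefSeq gives them for build GRCm38.p6 (mm10), 5′ to 3′ on the strand of the gene. Capitals mark exact matches, on either strand, to the AP-1 element TGACTCA, the CRE TGACGTCA and its core TGACG, the Jun-type elements TGACATCA and TTACCTCA, the CCAAT box, the TATA element TATAAA and the CArG box. The core TGACG lies within TGACGTCA, so every match to the longer element is also one to the core.
Jun, chr4:95052223-95052472, minus strand: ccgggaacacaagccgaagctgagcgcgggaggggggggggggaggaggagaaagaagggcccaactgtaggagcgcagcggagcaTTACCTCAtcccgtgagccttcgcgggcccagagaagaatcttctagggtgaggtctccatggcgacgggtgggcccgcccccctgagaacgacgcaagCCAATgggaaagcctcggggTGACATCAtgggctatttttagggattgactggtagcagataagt
Junb, chr8:84978749-84978998, minus strand: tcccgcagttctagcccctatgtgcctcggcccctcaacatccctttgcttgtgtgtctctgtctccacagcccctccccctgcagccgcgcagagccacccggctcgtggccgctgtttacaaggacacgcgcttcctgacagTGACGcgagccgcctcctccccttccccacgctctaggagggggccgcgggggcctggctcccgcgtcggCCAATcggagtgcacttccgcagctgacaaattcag
Fos, chr12:85473640-85473889, plus strand: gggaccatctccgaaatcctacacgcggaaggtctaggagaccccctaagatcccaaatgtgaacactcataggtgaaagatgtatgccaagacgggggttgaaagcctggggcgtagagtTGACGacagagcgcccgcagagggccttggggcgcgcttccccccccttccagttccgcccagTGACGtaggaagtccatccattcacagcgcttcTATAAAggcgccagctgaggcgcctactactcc
Fosb, chr7:19310046-19310295, minus strand: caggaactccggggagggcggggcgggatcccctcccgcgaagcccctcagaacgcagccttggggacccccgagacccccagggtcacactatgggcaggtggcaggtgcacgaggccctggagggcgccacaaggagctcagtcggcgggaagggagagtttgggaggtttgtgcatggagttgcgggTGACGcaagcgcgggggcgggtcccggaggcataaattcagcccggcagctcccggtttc

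The Jun window held TGACATCA 45 bases before the start, CCAAT at 65 and TTACCTCA at 164. TGACATCA stood in 2.93% and TTACCTCA in 0.728% of the 32851 mouse promoter entries of the same length. Neither Jun-type element was found in the windows of Junb, Fos or Fosb, which instead held the core TGACG, present in 17.8% of all entries. Fos had it 66 and 129 bases before the start and TATAAA at 33, Fosb had it at 60, and Junb had it at 106 with CCAAT at 36. Among all entries, 12.4% held TATAAA and 33.8% CCAAT. The AP-1 element TGACTCA (4.46% of entries) and the CArG box (1.47%) matched in no member's window, which says only that these letters are not within these 250 bases. Of the other members, Maff had TGACGTCA (1.55% of entries) 29 bases before 1 of its 3 starts and TGACATCA 45 bases before another. Atf3 had the core 7 bases before its start, on the opposite strand, and Fosl2 and Jund had no match. Of the 9 members, 8 had an entry; Fosl1 had none. The entry of Jund lies upstream of the gene start in the annotation used for the genes below.

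Of the 9 members, 5 responded to gentamicin in HCs. Jun and Jund rose, whereas Fos, Fosb and Fosl2 fell. The test was limma on log2 normalized read numbers, and a change was counted at p under 0.01 with a fold over 1.2, with Benjamini-Hochberg adjusted p-values over all genes tested beside it. By these criteria 27.5% of all genes tested changed in HCs (12.7% higher and 14.8% lower, or 2037 and 2381 genes, against 2774 and 1591 when each replicate was scaled to its total). Groups of 3 replicates did not overlap for 7 members, against 54.8% of all genes tested. The normalized read number is the number of reads scaled to the replicate with 1 added, so that a gene without reads reads 1.

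Jun encodes c-Jun, the main transactivating Jun protein, from a gene without introns at chr4:95049034-95052222. In HCs its normalized read numbers were 310, 391 and 404 in the control replicates and 838, 1201 and 987 after gentamicin. Every treated replicate lay above every control replicate. The rise was 2.73-fold, a log2 difference of 1.45 ± 0.31 (SE; adjusted p = 0.00535), which placed Jun above 99.7% of all genes tested.

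Jund encodes the Jun protein that is most evenly present in resting cells and lies at chr8:70698949-70700616. It had 333, 358 and 311 in control HCs and 407, 486 and 493 in treated HCs. The treated values were again all above the controls, by a smaller step of 0.47 ± 0.13 on the log2 scale (1.38-fold; adjusted p = 0.0199). This rise met the criteria in 2 of 6 analyses that left out 1 HC replicate, with adjusted p between 0.0540 and 0.0709 without control replicate 1 or 3 or gentamicin replicate 2 or 3.

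Junb, at chr8:84974484-84978718, encodes a Jun protein with weaker transactivation that can oppose c-Jun. It stood at 144, 220 and 196 in control HCs and at 130, 143 and 135 after treatment. The treated values were lower without overlap, but the difference of -0.44 ± 0.21 did not pass (adjusted p = 0.129). The 3 Jun genes therefore did not move together in HCs.

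Fos encodes c-Fos, the best known immediate early protein and a strong partner of c-Jun, at chr12:85473890-85477273. Its HC values were 337, 512 and 493 in controls and 179, 201 and 215 after gentamicin. All treated replicates lay below all controls, and the fall was 2.22-fold, with a log2 difference of -1.15 ± 0.28 (adjusted p = 0.00896).

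Fosb, at chr7:19302696-19310051, encodes FosB and, by splicing, the long-lived truncated form ΔFosB, which these gene-level values do not separate. Fosb had 129, 242 and 230 in control HCs and 64.7, 87.3 and 72.7 in treated HCs. The groups did not overlap, and the log2 difference was -1.38 ± 0.41 (2.60-fold lower; adjusted p = 0.0235). It met the criteria in 2 of 6 analyses with 1 HC replicate left out, failing without control replicate 2 or 3 or gentamicin replicate 1 or 3 (adjusted p between 0.0566 and 0.0873).

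Fosl2 and Fosl1 encode Fra-2 and Fra-1, which lack the strong transactivation domain of c-Fos. Fosl2, at chr5:32135801-32157842, had 19.5, 32.6 and 24.7 in control HCs and 16.8, 11.2 and 9.52 after treatment. These were low but separate groups, and Fosl2 fell by 1.04 ± 0.26 on the log2 scale (adjusted p = 0.0114). It missed the criteria without control replicate 2 (adjusted p = 0.0524) or gentamicin replicate 3 (adjusted p = 0.0433). Fosl1, at chr19:5447547-5455946, was close to absent from all samples, with 197 reads over the 12 replicates. Its normalized read number was between 1.04 and 1.33 in HCs of either group, too near the value of 1 that stands for no reads for a change to be measured at this depth, and its log2 difference was -0.11 ± 0.15.

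Atf3, at chr1:191170296-191218039, encodes a bZIP protein that is induced by many kinds of cell stress and can pair with Jun proteins. It was 12.4, 19.0 and 22.5 in control HCs and 16.1, 29.3 and 17.0 after gentamicin. These groups overlapped, and the difference of 0.20 on the log2 scale had a 95% confidence interval from -0.53 to 0.93. A change of either sign of up to about that size was thus not resolved. Maff, at chr15:79346621-79359076, was 10.8, 12.8 and 9.57 in controls and 7.84, 6.69 and 5.56 in treated HCs. Its treated values were lower without overlap, but its difference of -0.73 ± 0.29 did not pass (adjusted p = 0.0716), other than in a fit of the HC groups alone (adjusted p = 0.0144).

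**Figure D1:**
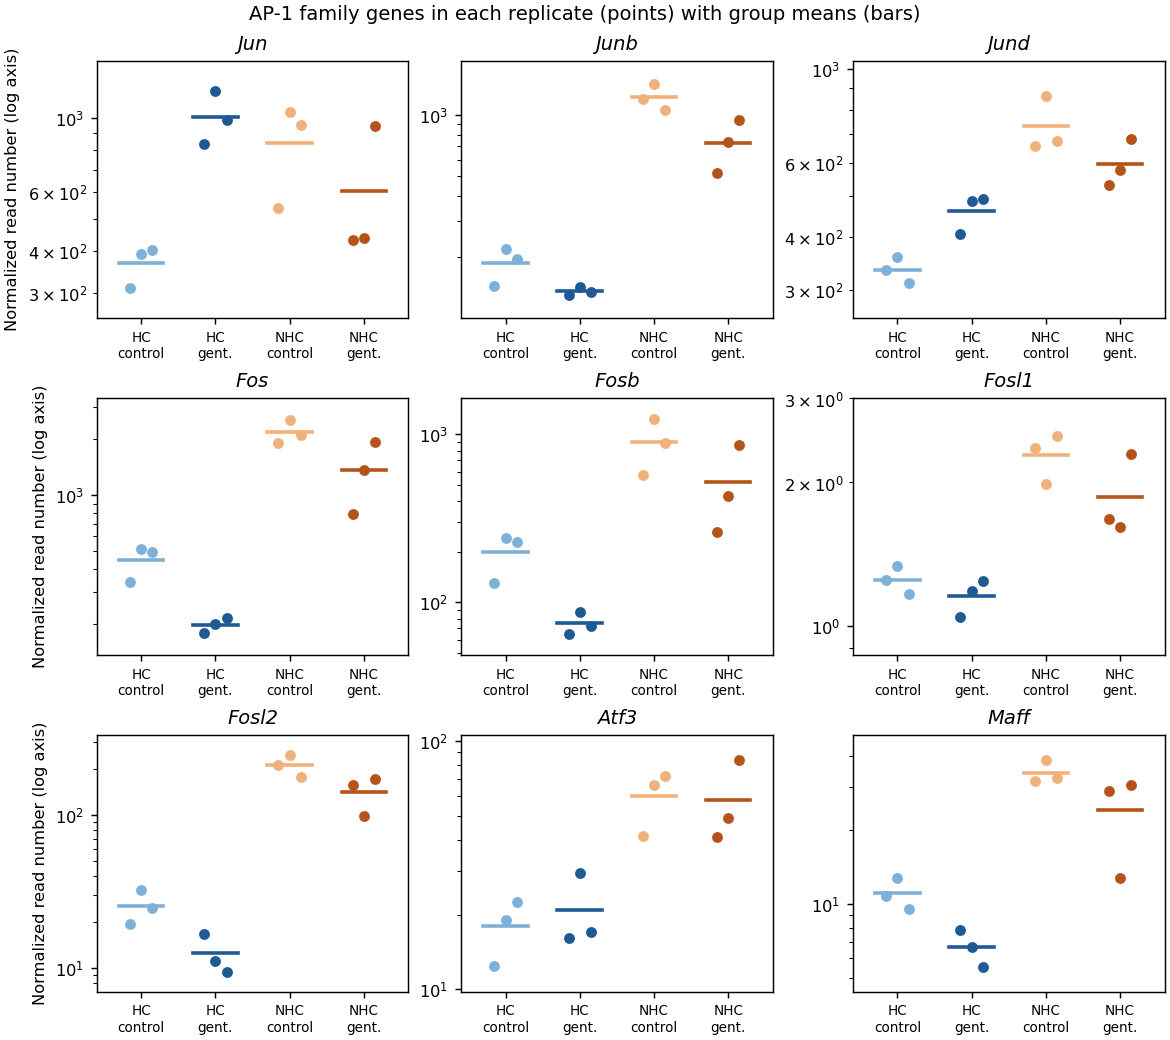
Normalized read number on a log axis for each AP-1 family gene, 1 point per replicate in control and gentamicin-treated hair cells (HC) and non-hair cells (NHC), with bars at the group means. Jun is the member whose treated hair cells reach the range of the non-hair cells, whereas Fos, Fosb and Fosl2 lie lower in treated than in control hair cells.

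The Fos genes were far more abundant in NHCs than in HCs, and RNA of some other cell types was lower in the treated than in the control HC samples. Hair cell markers were as the label requires, with 12 of 12 higher in control HCs than in control NHCs. Their own sum was also lower after gentamicin, at 14751 to 15318 in control and 12442 to 13707 in treated HCs. Lower sums were thus not particular to markers of other cells. The 8 mesenchymal markers, all detected in HCs, summed to 513 to 750 in control and 346 to 426 in treated HCs, against 5534 to 7250 and 6257 to 9676 in control and treated NHCs. All 8 had lower means in treated than in control HCs, and 2 of them met the criteria, the collagen genes Col1a2 (-1.18) and Col3a1 (-1.33). The 6 glial markers summed to 122 to 162 in control and 77.3 to 113 in treated HCs, and the 6 endothelial markers to 12.9 to 22.8 and 7.30 to 12.5. The 8 macrophage markers did not follow this and summed to 3.69 to 4.61 in control and 5.15 to 6.49 in treated HCs. Neuron marker sums overlapped between control and treated HCs, at 1040 to 1232 and 979 to 1123. The melanocyte and red blood cell marker sums overlapped as well. The sums of the 10 supporting cell markers overlapped between control HCs and control NHCs, at 1774 to 2078 and 1383 to 2387, with 2 markers higher and 2 lower in HCs (Sox10 and Cdkn1b). They reached 896 to 1542 in treated HCs, with 4 of 10 past the criteria, all lower (Hes5, Hey1, Lfng and Sox10).

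The mesenchymal sum in HCs amounted to 7.70% to 11.3% of the mean NHC level in the control replicates and to 4.40% to 5.40% in the treated ones. The percentage depended on the list. Endothelial markers gave 6.40% to 11.3% and 2.83% to 4.84%, glial markers 27.6% to 36.5% and 19.1% to 27.9%, macrophage markers 9.46% to 11.8% and 12.7% to 16.0%, and supporting cell markers 97.4% to 114% and 61.4% to 106%. The mesenchymal percentage of the mean NHC level of each gene was therefore subtracted from each HC replicate, in an analysis chosen after the data had been seen. Where this exceeded the HC level, the value was set to that of no reads. The mesenchymal sum includes Pdgfra, at 277 in control HCs and 341 in control NHCs, which was not shown to differ (limma adjusted p = 0.266). Pdgfra is a large part of the HC sums, so the percentage would be smaller without it, which was not computed. For every member the step took a larger percentage, of a higher NHC mean, from control than from treated HCs. An upward shift of the HC differences was thus largely set in advance, and the fits took the subtracted amount as free of error. The rises of Jun and Jund were larger after it, at 1.74 and 0.69 on the log2 scale, and both still met the criteria. The fall of Fos narrowed to -0.89 (adjusted p = 0.0431) and that of Fosb to -1.18 (adjusted p = 0.0735), and neither had an unadjusted p under 0.01. Fosl2 kept little of its fall, at -0.46 (adjusted p = 0.584), and Junb turned from a lower to a higher value, at 0.45 (adjusted p = 0.197). The subtraction assumes that the other cells in a HC sample have the make-up of the NHC fraction, which was not tested. In bulk samples, fewer cells of a type and less RNA per cell cannot be told apart.

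After the subtraction, Fos was at 168, 265 and 310 in control and at 119, 129 and 142 in treated HCs, so the groups still did not overlap. Junb was at 49.8, 82.0 and 93.9 in controls and at 97.9, 104 and 95.5 in treated HCs. Fosl2 was at 3.22, 8.75 and 6.94 and at 10.6, 3.79 and 1.86, so its groups overlapped. Of the members that changed in HCs, Jun and Jund rose by more after the subtraction, and Fos and Fosb were lower by less. These shifts go the way that the step had largely set in advance. Fosl2 no longer separated the groups.

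**Figure D2:**
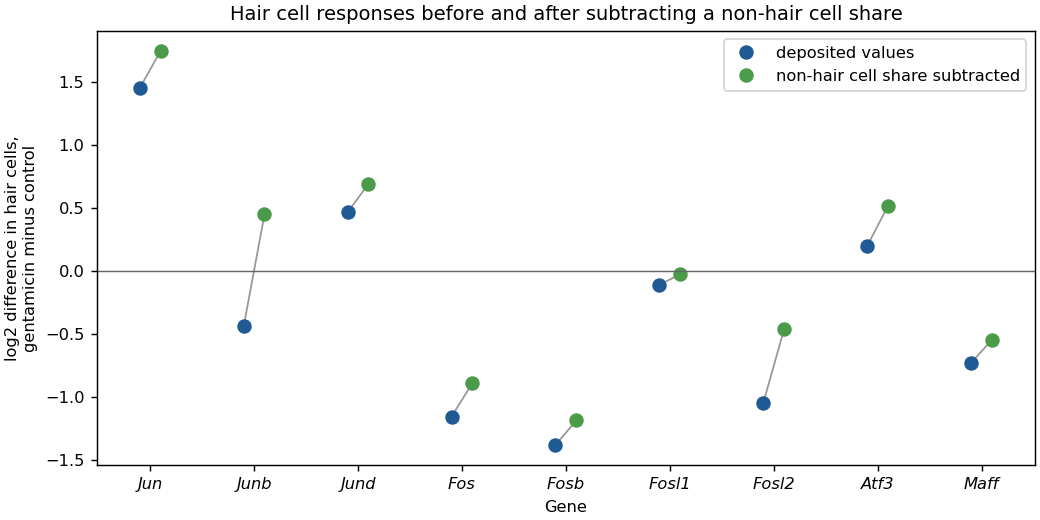
Log2 difference between treated and control hair cells for each gene with the deposited values and after subtracting a non-hair cell percentage set by mesenchymal markers. Jun moves from 1.45 to 1.74 and Fos from -1.15 to -0.89, while Fosl2 moves from -1.04 to -0.46 and Junb crosses 0.

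In NHCs 1 member changed. Junb fell from 1201, 1418 and 1052 to 516, 735 and 943. The treated replicates were all below the controls, and the log2 difference was -0.78 ± 0.21 (adjusted p = 0.113). This met the criteria of p and fold, as did 5.45% of all genes tested, but not an adjusted p under 0.05, which 0.342% of genes passed. It was lost without control replicate 2 (adjusted p = 0.423) or gentamicin replicate 1 (adjusted p = 0.216), and when only the NHC groups were fitted (adjusted p = 0.4004).

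The other members did not pass in NHCs, although the fitted differences of all 9 were below 0, as were those of 51.1% of all genes tested. Fos was at 1906, 2559 and 2105 in controls and 787, 1374 and 1935 after gentamicin, a difference of -0.77 (adjusted p = 0.203). Fosb went from 574, 1237 and 882 to 261, 428 and 870, a difference of -0.90 (adjusted p = 0.291). Jun was at 537, 1040 and 950 in controls and at 431, 437 and 943 after gentamicin, a difference of -0.53 (adjusted p = 0.417). These 3 genes overlapped between the groups because the third treated replicate lay within the control range, and the other 2 were lower.

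Jund had 656, 863 and 675 in control and 531, 578 and 682 in treated NHCs, with overlap and a difference of -0.29. Fosl2 had 213, 249 and 177 against 158, 98.7 and 172, a difference of -0.60. Maff had 31.6, 38.8 and 32.8 against 29.1, 12.7 and 30.6, a difference of -0.61. Neither Fosl2 nor Maff overlapped between the groups, so with Junb there were 3 such members, against 17.8% of all genes tested. Atf3 had 41.3, 66.4 and 72.0 against 41.1, 49.1 and 83.8, the smallest difference of the family at -0.08. Fosl1 had 2.37, 1.98 and 2.51 against 1.68, 1.61 and 2.30.

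The third gentamicin-treated NHC replicate had the highest value of its group for 9 of 9 members. Without it 5 members met the criteria, all lower, with log2 differences of -0.90 for Jun, -1.06 for Fos, -1.36 for Fosb and -0.47 for Fosl1 beside Junb, while 1571 genes met them in place of 876. It also had the lowest mesenchymal sum of the treated NHCs (6257, against 7715 and 9676) and the highest neuron marker sum (1020, against 555 and 260). Its supporting cell sum was the highest too (1966, against 1483 and 931). So was its sum of genes known to rise on enzymatic dissociation, without AP-1 members (12823, against 8634 and 10072). Its glial, macrophage and melanocyte sums lay between those of the other treated NHCs. Whether any of these differences had a part in its AP-1 values was not tested.

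**Figure D3:**
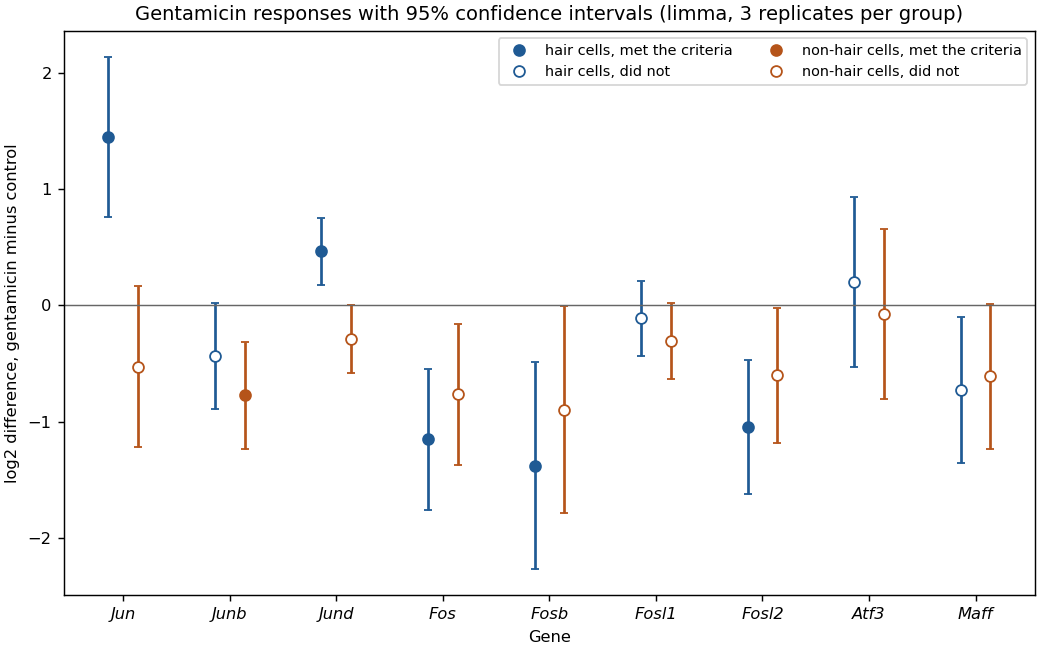
Log2 difference between gentamicin and control for each gene in hair cells and non-hair cells, with 95% confidence intervals from limma. Filled points met p under 0.01 with a fold over 1.2. Jun and Jund lie above 0 in hair cells and below 0 in non-hair cells, and the Fos genes lie below 0 in both.

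The difference between the HC and the NHC response was tested as an interaction at adjusted p under 0.05, which 13.4% of all genes tested passed. It passed for 2 of 9 members. The response of Jun was higher in HCs by 1.97 ± 0.45 on the log2 scale (adjusted p = 0.0166), and that of Jund by 0.76 ± 0.19 (adjusted p = 0.0238). That of Jun passed in 12 of 12 analyses with 1 replicate left out. That of Jund was lost in 5 of them, those without HC control replicate 1 or 3, HC gentamicin replicate 2, NHC control replicate 2 or NHC gentamicin replicate 1, with adjusted p between 0.0505 and 0.0600. For Fos the interaction was -0.39, with a 95% confidence interval from -1.25 to 0.47, and for Fosb it was -0.48, from -1.74 to 0.78. A lower Fos or Fosb response in HCs than in NHCs was thus not shown, although in HCs alone both passed. For Junb the interaction was 0.34 (adjusted p = 0.474), so a difference between its HC and NHC responses was not shown. After the subtraction described above, which by itself shifts HC responses upward, the interaction of Junb passed, at 1.22 (adjusted p = 0.0396).

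Without drug, every member was lower in HCs than in NHCs. All 9 passed at adjusted p under 0.05, as did 74.1% of all genes tested (42.2% lower), and none overlapped, as for 79.2% of all genes. The step was largest for Fosl2 (8.41-fold lower in HCs, adjusted p = 7.30e-07) and Junb (6.61-fold, adjusted p = 2.94e-07). It was 4.94-fold for Fos, 4.43-fold for Fosb, 3.34-fold for Atf3 and 3.12-fold for Maff. Jun (2.21-fold, adjusted p = 0.00609) and Jund (2.18-fold) differed least apart from Fosl1, whose fold is understated by the value of 1 added to its few reads. Genes known to rise on enzymatic dissociation, 33 of which were tested, were also mostly lower in control HCs, 25 lower and 2 higher at the same threshold. Their sum without AP-1 members was 7429 to 7993 in control HCs and 12915 to 15006 in control NHCs. Dissociation preceded the sort in every sample, and its part in these levels was not tested.

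In order of group mean, Jun was highest in treated HCs (1009 ± 183, SD, n = 3), then in control NHCs (842 ± 268), treated NHCs (604 ± 294) and control HCs (368 ± 50.7). The first 3 of these overlapped in their replicates, and control HCs were below all others. The order for Fos was control NHCs (2190 ± 335), treated NHCs (1365 ± 574), control HCs (447 ± 95.9) and treated HCs (198 ± 18.2), with overlap between the NHC groups alone. Gentamicin thus brought Jun in HCs into the NHC range and took Fos in HCs further away from it.

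Within the family the make-up of the messages changed in HCs. To compare genes, the normalized read number minus 1 was divided by the length in kb of the principal transcript of each gene in GENCODE M21, and each member was expressed as a share of the family sum. Jun held 16.5% ± 0.82 of the sum in control HCs and 39.6% ± 2.69 in treated HCs (SD, n = 3). Fos held 30.1% ± 2.36 and 11.8% ± 0.96, Junb 14.6% ± 0.94 and 9.44% ± 0.76, Fosb 7.41% ± 1.37 and 2.45% ± 0.12, and Jund 29.0% ± 4.66 and 34.9% ± 1.73. Fosl1, Fosl2, Atf3 and Maff together were a small rest in every group, none of them above 1.24% on average in HCs.

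On average the largest share thus passed from Fos in control HCs, with Jund close behind, to Jun in treated HCs. After the subtraction Jund was largest in control HCs (36.2% ± 7.61, against 25.6% ± 3.90 for Fos and 20.2% ± 0.69 for Jun), and Jun in treated HCs (43.3% ± 2.81). In NHCs it stayed with Fos, at 38.1% ± 0.71 in control and 35.3% ± 4.50 in treated samples, while Jun held 9.54% ± 2.20 and 10.3% ± 2.05. The summed family level per kb in HCs was 699 ± 105 in control and 795 ± 95.9 in treated samples, with overlap (two-sided exact permutation p = 0.4). In NHCs it was 2733 ± 470 and 1797 ± 615 (exact permutation p = 0.2).

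**Figure D4:**
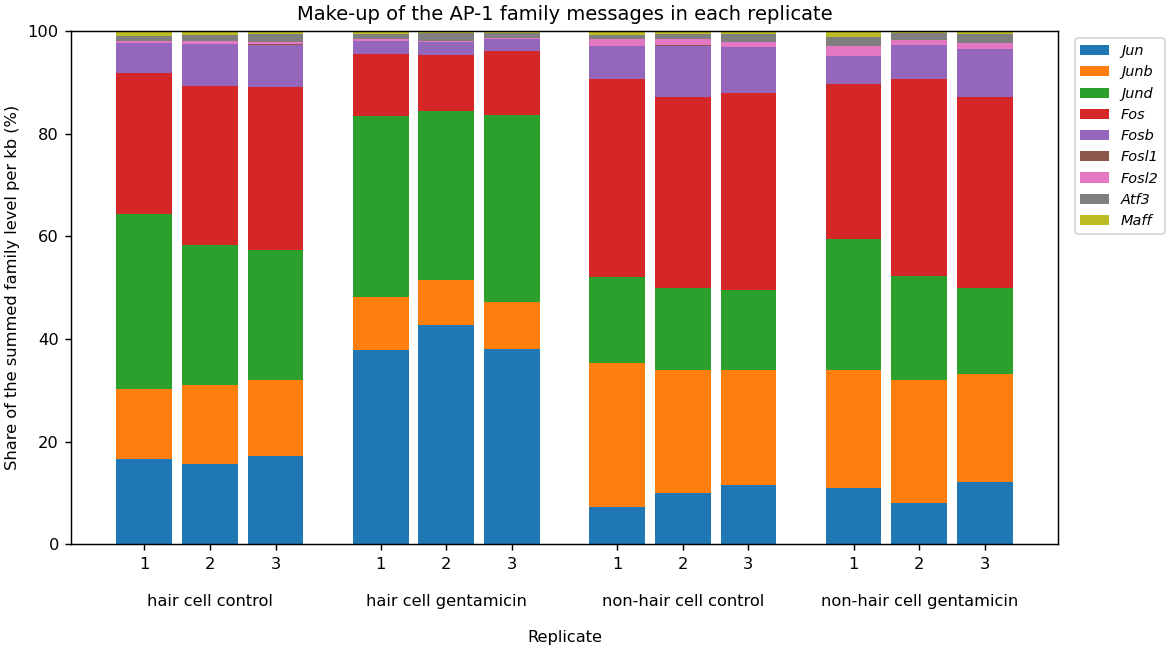
Share of each AP-1 family gene in the summed family level per kb of transcript, in percent, for each of the 12 replicates. Jun rises from 16.5% to 39.6% and Fos goes from 30.1% to 11.8% on average in hair cells, while non-hair cells keep Fos as the largest share.

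The ratio of Jun to Fos per kb was 0.608, 0.505 and 0.541 in control HCs and 3.10, 3.98 and 3.04 in treated HCs. It lay between 0.186 and 0.298 in control and between 0.210 and 0.362 in treated NHCs. The HC groups were thus far apart and the NHC groups overlapped. An exact two-sided permutation test gave p = 0.1 in HCs, the smallest that 3 against 3 replicates allow, and p = 0.5 in NHCs. After the non-hair cell percentage was subtracted, the ratio in HCs was 0.964, 0.738 and 0.711 in controls and 4.53, 6.03 and 4.48 after gentamicin. A ratio within a sample shows unequal change of the 2 messages and does not depend on how the sample was scaled.

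Replicates of 1 group also differed from each other in a way that many members shared. Of 36 pairs of members, 35 had a positive correlation of their log2 deviations from the group means over the 12 replicates, with a median r of 0.40. Fos and Fosb (r = 0.94), Fos and Junb (0.94), Jun and Fosb (0.91) and Jun and Atf3 (0.90) were closest, and Fosl2 and Maff formed a separate pair (0.81). In NHCs alone 35 pairs were positive (median 0.51), and in HCs alone 28 (median 0.31). Pairs of other genes were not examined. These values describe the replicates, which share their culture, dissociation and scaling. So Jun and Fos varied together between replicates of a group (r = 0.75), while gentamicin moved them apart in HCs. The first replicate had the lowest value for 6 of 9 members in control HCs, control NHCs and treated NHCs, and for 7 of 9 in treated HCs.

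The genes whose pattern was most like each member were sought among 13064 genes, after taking out the population means, over the 12 replicates. Fos was followed most closely by Zfp36, which encodes the mRNA decay factor tristetraprolin (r = 0.99), then by Fosb (0.97) and the immediate early gene Ier2 (0.97). Zfp36 fell in HCs by 1.18 on the log2 scale and differed by -0.76 in NHCs. Fosb was followed by Fos, by Cyr61, a matricellular growth factor gene (0.97), and by Zfp36. Junb had Them4 (0.96), Ier2 (0.93) and Irf2bp2 (0.92).

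Genes close to Jun were instead Dusp8, which encodes a phosphatase of JNK and p38 kinases (0.97), and the small Maf gene Mafk (0.97). Their log2 differences in HCs were 2.29 for Dusp8 and 0.75 for Mafk, and in NHCs -0.64 and -0.33. These genes were thus chosen for a pattern that goes up in HCs and down in NHCs as that of Jun does. Jund had Bahd1 (0.95), Smap1 (0.93) and Palm3 (0.93). Fosl2 had Asph, Rabac1 and Sema4g (each 0.96), and Maff had Trank1 (0.99), Pygl and Hk1 (each 0.98). Atf3 and the scarce Fosl1 had no gene above 0.89.

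Other bZIP genes that can pair with or oppose AP-1 also split in HCs. Of 26 tested, 6 rose and 4 fell, where 12.7% and 14.8% of all genes did, and the median log2 difference was -0.06, against -0.09 for all genes tested. Creb5, an ATF2 relative that pairs with c-Jun, rose most, by 2.66 ± 0.19, from 4.56 to 29.4 normalized reads on average. Atf4 and Ddit3 (CHOP), effectors of the integrated stress response, rose by 1.80 ± 0.11 and 1.46 ± 0.14. Mafk (0.75), Atf2 (0.51) and Creb1 (0.39) rose by less. The small Maf gene Mafg fell by 0.93 ± 0.09, so that 2 small Maf genes changed in opposite directions. The large Maf gene Maf fell by 0.75, and Bach1 and Bach2, repressors that pair with small Maf proteins, by 0.62 and 0.54. After the subtraction of the non-hair cell percentage Mafg (-0.90), Bach1 (-0.53) and Bach2 (-0.53) still met the criteria and Maf did not (-0.46, adjusted p = 0.467). Cebpb, which showed 0.14 before the subtraction, then met the criteria as higher (1.83, adjusted p = 8.57e-05). It was at 27.8 in control HCs and 229 in control NHCs, so most of its control HC level was subtracted.

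In NHCs, 4 of the 26 met the criteria (5.45% of all genes), all lower (1 lower and 1 higher when each replicate was scaled to its total), namely Cebpb (-0.93, adjusted p = 0.0301), Atf5 (-0.47), Ddit3 (-0.43) and Mafg (-0.29). The interaction passed for 7 of 26 (13.4% of all genes), 5 of them higher in HCs.

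Some factors that act on the Fos promoter were lower in treated HCs, and whether this had a part in the fall of Fos was not tested. Serum response factor and its partners, the ternary complex factors, carry growth factor signals to the Fos gene. Of 8 genes tested 3 fell, which were the ternary complex factors Elk3 (-0.86 ± 0.10), Elk4 (-0.59 ± 0.11) and Elk1 (-0.54 ± 0.10), none rose, and the median was -0.42 (14.8% of all genes fell). In NHCs none of the 8 met the criteria, and the 3 Elk genes were within 0.03 of no change on the log2 scale. The interaction passed for these 3 genes. After the subtraction Elk3 (-0.86), Elk4 (-0.56) and Elk1 (-0.50) still met the criteria, unlike Fos itself. Fhl2, a cofactor of serum response factor, then met them as higher (1.58, adjusted p = 0.000329). It was at 2.72 in control HCs and 26.2 in control NHCs, so the amount subtracted was about as large as its control HC level. Its rise thus starts from a value near that of no reads.

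Among 20 kinases and binding proteins that act on AP-1 proteins, 4 rose in HCs and 2 fell, a share close to the 27.5% of all genes that changed. Those that rose included Mapk8 (JNK1, 0.47), Itch, a ubiquitin ligase for Jun proteins (0.42), and the coactivator Ep300 (0.41). The coactivator Crebbp fell by 0.46 and Mapk3 (ERK1) by 0.31. Ep300 and Crebbp, which are close relatives, thus changed in opposite directions. In NHCs only Apex1, whose product reduces a cysteine of Jun and Fos, met the criteria (0.61, adjusted p = 0.121).

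**Figure D5:**
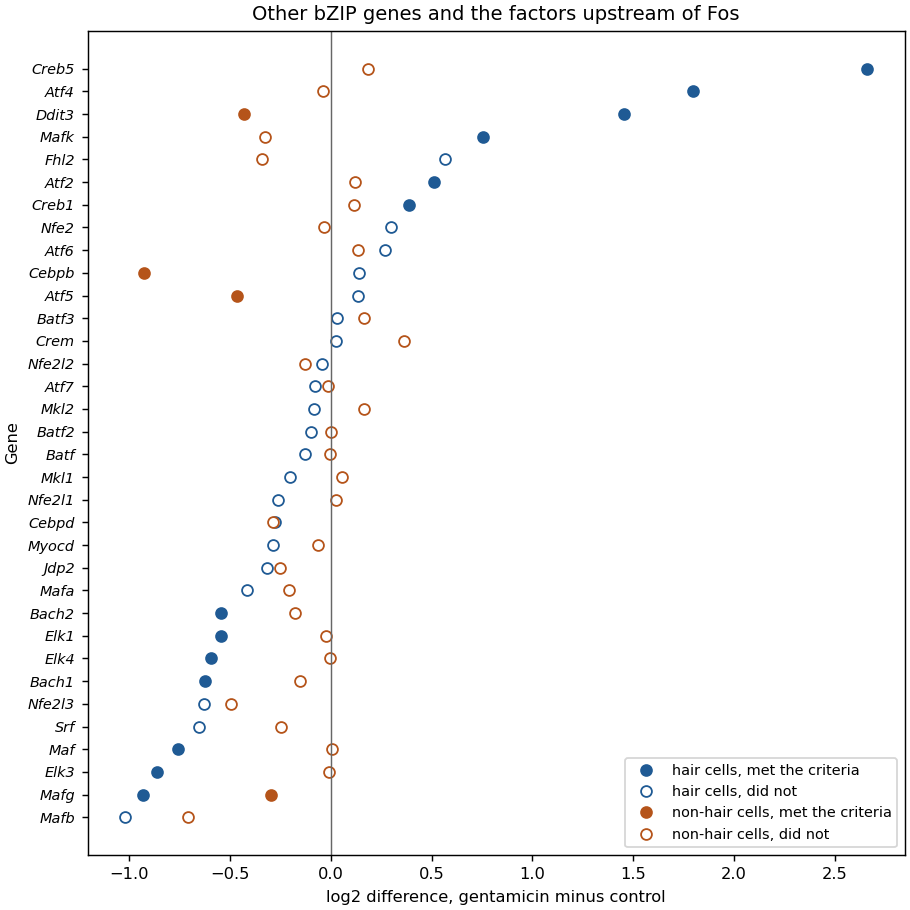
Log2 difference between gentamicin and control for 34 other bZIP genes and factors upstream of Fos, sorted by the hair cell value, with filled points where p was under 0.01 with a fold over 1.2. Creb5 and Atf4 lie farthest to the right in hair cells, and non-hair cells stay near 0 for most genes.

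Textbook AP-1 target genes did not rise with Jun in HCs. Of 35 tested, 8 fell and 1 rose, a share close to the 27.5% of all genes that changed, of which 14.8% were lower. The median was -0.42, against -0.09 for all genes tested. The rise was that of Odc1, the first enzyme of polyamine synthesis (0.32). Those that fell were led by Spp1, which encodes osteopontin (-2.05 ± 0.45), the gelatinase gene Mmp2 (-1.18 ± 0.29) and Gja1, the gap junction gene (-0.94), and included Vim (-0.85), Dcn (-0.69), Mmp14 (-0.68) and Fth1 (-0.38). Several of them were far more abundant in NHCs. Mmp2 was at 43.6 in control HCs and 710 in control NHCs on average, Vim at 115 and 1188, and Dcn at 27.5 and 379. The list as a whole had a median population difference of -2.00 without drug, and the lower mesenchymal sums of treated HCs given above stand beside these falls. After the subtraction, 1 of the 8 still met the criteria, which was Fth1 (-0.30, adjusted p = 0.0262), and Mmp2, Dcn and Gja1 were left with no difference, since the amount subtracted was as large as their HC level. Hmox1, the stress-induced heme oxygenase gene, then met the criteria as higher (0.81, adjusted p = 0.0277). It was at 6.65 in control HCs and 59.9 in control NHCs, so here too the amount subtracted was close to its control HC level. In NHCs 3 of 35 were lower by the criteria (Ccl2 and Mmp13 among them) and Odc1 was higher.

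Of the 33 genes known to rise on dissociation, which include the member Maff, 9 fell and 2 rose in HCs, where 14.8% and 12.7% of all genes did. Ier3 (-1.41), Socs3 (-1.36), Zfp36 (-1.18), Klf4 (-1.05), Nr4a2 (-0.83), Ier2 (-0.72), Egr1 (-0.68), Hspa8 (-0.48) and Btg1 (-0.39) fell, while Ppp1r15a, a stress response phosphatase subunit (0.79), and the GTPase gene Rhob (0.66) rose. In NHCs 31 of 33 had fitted differences below 0, as did 51.1% of all genes, and of these Ier3, Cebpb and Nfkbia met the criteria. The falls of Fos and Fosb thus stood beside falls of other immediate early genes in the same HCs. When each replicate was scaled to its total, 5 in place of 9 fell in HCs. After the subtraction 2 did, Klf4 (-0.95) and Hspa8 (-0.46), and 3 were higher, with Cebpb beside Ppp1r15a and Rhob. Zfp36 was at -0.84 (adjusted p = 0.0600). Ier3 and Socs3, which had fallen most, changed sign, to 0.68 and 0.29 (limma adjusted p = 0.297 and 0.533). The other genes that had fallen stayed below 0. Whether the dissociation itself differed between control and treated organs was not tested.

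Reads of some members could belong to genes on the other strand. In the annotation Jun overlaps the antisense gene Junos, Junb overlaps Prdx2, Jund overlaps Gm11175, Fosl1 overlaps Ccdc85b and Atf3 overlaps Gm24748. These overlaps are of whole gene spans, introns included, and whether exons overlap was not computed. Whether strand was used in counting is not given in the sources used here. Without it, reads in exonic sequence shared by such a pair could not be told apart. Fos, Fosb, Fosl2 and Maff overlap no other annotated gene.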

How the data were processed

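RNA of FACS-purified cells was sequenced from poly(A) libraries (TruSeq mRNA kit). Per the submitters' processing notes and the study's methods, reads were aligned with TopHat2 to mm10 and quantified in PartekFlow; counting rules and strand are not given in the sources used here. The deposited values are a signal per gene and replicate: reads scaled by the authors to the replicate, plus 1, so that the lowest value is 1. The step of 1 read was the same for all genes, so the values were not divided by length, although the methods name RPKM. Low values were whole multiples of that step (tolerance 0.02) in 78.0% to 79.6% of cases, too few for a count model. The recovered depth was 22401091 to 28152137 reads per replicate (median 25116771), and 2954 genes had no reads. These recovered reads were used for filtering and depth alone.

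Log2 values of the 4 groups (3 replicates each) were fitted in 1 model with limma 3.58.1 (R 4.3.3) with a mean-variance trend, for 16081 genes with at least 100 recovered reads. Log2 fold changes are on this scale with 1 added, which understates the change of low genes. Gentamicin responses were called by the criteria of the study, p under 0.01 and fold over 1.2; the interaction and the control populations by adjusted p under 0.05. Single ratios were compared by exact permutation tests. The fits were tested on simulated data. Replicate numbers come from the column headers. Deviations of control HCs and control NHCs with the same number correlated at 0.22, 0.32 and 0.20. Those of treated HCs and treated NHCs correlated at 0.38, -0.04 and -0.02. Whether samples of the same number were paired is not given in the sources used here. The replicate block changed no member's call between the control populations.

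Every member is named. Of other lists, genes that met a call, or otherwise the 4 with the largest difference, may be named, and for likeness the 3 genes of highest Pearson correlation whose mean normalized read number reached 5. A few genes of these lists are not reported here by name, though list counts include them. The members and all lists were chosen with earlier results of these data known. Alternatives were other scalings (replicate total, median-of-ratios), offset 0.1, minimums of 1 and 1000 reads, a replicate block, no variance trend, only the 2 groups compared and leaving out each replicate; subtraction of a non-hair cell share was added after seeing the data. Gene positions are from GENCODE M21 (GRCm38).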

Additional observations from a re-analysis of the deposited data

Results flagged for a closer look

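The gentamicin response differed between HCs and NHCs, by the interaction test of limma at adjusted p under 0.05, for the members Jun (log2 difference of the responses, HC minus NHC, 1.97) and Jund (0.76). Among the other bZIP genes it was higher in HCs for Creb5 (2.48), Ddit3 (1.88), Atf4 (1.83), Mafk (1.08) and Cebpb (1.06), and lower for Mafg (-0.63) and Bach1 (-0.47). For Cebpb the HC response alone did not pass (0.14), and the NHC response was -0.93. After the subtraction of the non-hair cell percentage, which took most of its control HC level, the HC response was 1.83 and met the criteria. The ternary complex factor genes Elk3 (-0.85), Elk4 (-0.59) and Elk1 (-0.52) responded lower in HCs.

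Of the kinases and binding proteins, Mapk8 (0.64) and Itch (0.45) responded higher in HCs, and Crebbp (-0.43) lower. Of the AP-1 targets, Mmp2 (-1.39), Mmp14 (-0.93), Dcn (-0.84) and Gja1 (-0.71) responded lower in HCs. After the subtraction Mmp2, Dcn and Gja1 were left with no HC difference, and Mmp14 did not meet the criteria (-0.81, limma adjusted p = 0.0504). Of the dissociation genes, Ppp1r15a (1.197) and Rhob (0.88) responded higher and Hspa8 (-0.61) lower.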

How the results depend on the processing

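Of the values recomputed, the rises of Jun in HCs, its interaction and the lower level of all members tested in control HCs kept their direction and their side of the threshold under every alternative. The subtraction was no test of these results, since it moves HC responses upward and lowers control HC levels. The calls of Jund, Fosb and Fosl2 in HCs depended on single replicates, and those of Fos, Fosb and Fosl2 on the non-hair cell percentage. With 1 replicate left out, 2 to 4 members met the criteria in HCs in place of 5, 0 to 5 in NHCs in place of 1, and 1 to 2 passed the interaction in place of 2. The genes that met the criteria in NHCs then numbered 411 to 1571 in place of 876, and those that passed the interaction 1160 to 2377 in place of 2158. The difference of Atf3 then lay between -0.076 and 0.38 in HCs and between -0.38 and 0.14 in NHCs, and its interaction between -0.00033 and 0.57. The interaction of Maff lay between -0.52 and 0.11. Where an arm kept 2 replicates, the shared estimate of the spread was used; the cause of these changes was not tested.

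After the subtraction, 2 members met the criteria in HCs, Junb was at 0.45, and the interactions of Fosl2 and Maff were 0.14 and 0.066, of opposite sign to the values before it. With only the 2 groups fitted, 383 genes and 0 members met the criteria in NHCs. Over all genes tested, replicate numbers gave no clear pairing of control with treated samples. The deviations of same-numbered HC samples correlated at 0.04, 0.05 and 0.04, and those of NHC samples at 0.21, -0.23 and 0.68. In each of the 4 groups, though, the first replicate was the lowest for most members. With the replicate block, 3 members met the criteria in NHCs, Fos and Fosb beside Junb, and 5 in HCs; genes numbered 878 and 4618. Scaling to the replicate totals gave 633 higher and 283 lower in NHCs in place of 512 and 364, and 1500 and 716 for the interaction in place of 1102 and 1056. Median-of-ratios scaling moved the median population difference of all genes from -0.12 to -0.01, and the 9 members were still lower in HCs.

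Depth limits Fosl1, which had at most 39 reads in a replicate.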
